A study of Mus musculus with 4 samples.

Results

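Ereg, Areg, Hbegf, Nrg1 and Tgfa encode growth factors of the EGF family, which are the ligands of the ERBB receptor tyrosine kinases. They were measured by single-cell RNA sequencing of CD45+ cells sorted from subcutaneous pancreatic tumors of mice. These 5 genes of the 33696 in the matrices were chosen by their UMI counts (unique molecular identifiers, each standing for 1 captured RNA molecule) across cell classes and treatment groups, with those counts already known. Their levels, their ratios between libraries and the share of their UMIs in the top cells are therefore descriptions and carry no test.

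ERBB ligands are made as membrane-anchored precursors and are released from the cell surface by metalloproteases, of which ADAM17 is the best known. Amphiregulin (Areg), epiregulin (Ereg), transforming growth factor alpha (Tgfa) and heparin-binding EGF-like growth factor (Hbegf) bind EGFR, and epiregulin and heparin-binding EGF-like growth factor also bind ERBB4, whereas neuregulin 1 (Nrg1) binds ERBB3 and ERBB4. Epithelial and carcinoma cells both make and receive these ligands. Among leukocytes, amphiregulin is best known from regulatory T cells, innate lymphoid cells, mast cells and basophils, where it is linked to tissue repair.

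All mice were male C57BL/6 (C57BL/6NHsd) animals aged 8 to 10 weeks that carried subcutaneous tumors of the KPC line, a mouse pancreatic cancer line, and tumors were taken at day 14. One group was untreated. The second received the STING agonist ADU-S100, a cyclic dinucleotide, once into the tumor. The third received repeated intraperitoneal doses of the LTβR agonist, an antibody (4H8) that activates the lymphotoxin-β receptor, and the fourth (the combination) received both agents. Tumors of several mice were pooled within a group and gave 1 library per group, so in these 4 libraries there was no replicate, no test between groups was possible, and a treatment cannot be told apart from the pool, sort and run that gave its library. The study ran a further independent single-cell experiment, which was not analysed here.

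The deposited matrices held 8730 cells for the untreated group, 15404 for the STING agonist, 14634 for the LTβR agonist and 16322 for the combination, with 52109958 to 85855398 UMIs per library. After filtering, 7516, 13441, 13225 and 14666 cells were kept, with median depths of 4616, 3109, 3733 and 2200 UMIs per cell in the same order of groups. The combination library was thus the shallowest. Between 34 and 83 cell barcodes were shared by any pair of libraries, at most 0.539% of the smaller one.

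Cells were clustered and the clusters named from marker genes. The macrophage-like class (macrophages and monocytes together) held 3087 untreated, 4469 STING agonist, 6042 LTβR agonist and 6255 combination cells, of which 75.0 to 88.6% had a UMI of Csf1r and 87.3 to 92.0% a UMI of Lyz2. The neutrophil-like class held 492, 5292, 963 and 1295 cells, the T cell-like class 1396, 599, 1988 and 1653, and the carcinoma-like class 152, 213, 201 and 280. The last class was present although the sort was for CD45+. It was named from 4 of its 9 markers: Krt8 was found in 46.5 to 62.2% of its cells, Krt18 in 33.3 to 56.6%, Krt19 in 27.9 to 39.8% and Msln in 23.2 to 28.3%, whereas Cldn4 had no UMI and Epcam, Cldn7, Krt7 and Cdh1 were each found in at most 1.79% of cells. A further cluster led by St7 and Gab1 held 789, 1037, 829 and 1358 cells and was left unnamed. In that cluster 38.2 to 47.8% of cells had a UMI of Csf1r, and the median share of ribosomal protein UMIs was only 0.549 to 0.755% per cell.

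Levels are given as CPM (UMIs of a gene per 1000000 UMIs of all cells of a class in a library) with exact Poisson 95% intervals, and differences between libraries as the log2 ratio of CPM with exact binomial 95% intervals. These intervals cover counting error only. They do not cover the spread between animals or between cells, and they are too narrow where a few cells hold much of a gene's UMIs.

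Ereg and Areg are neighbors on mouse chromosome 5 (GRCm38.p6). Ereg lies at chr5:91074617-91093649 and Areg at chr5:91139599-91148432, 46 kb apart, within a stretch of 375 kb that also holds the ligand genes Epgn (chr5:91027517-91035212) and Btc (chr5:91357261-91402994). Tgfa lies at chr6:86195038-86275744 and Nrg1 at chr8:31807452-32891609. The 250 bases before the start of Areg (chr5:91139349-91139598, + strand, RefSeq) are shown because Areg in macrophage-like cells, as named from clusters, stood past 2-fold above untreated in all 3 treated libraries. With cells named by their own markers without clusters, it did so only with the STING agonist. The capitals mark a cAMP response element, the site that cAMP-activated transcription factors of the CREB family bind.

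Areg promoter: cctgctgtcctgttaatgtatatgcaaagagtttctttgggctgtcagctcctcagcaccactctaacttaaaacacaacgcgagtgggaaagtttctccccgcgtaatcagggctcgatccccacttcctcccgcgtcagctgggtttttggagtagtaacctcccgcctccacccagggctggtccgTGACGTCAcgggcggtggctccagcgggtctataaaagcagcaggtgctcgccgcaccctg

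The full palindrome TGACGTCA was found once, 61 bases before the start, in a search of both strands from 250 bases before to 50 bases after each start, and the TATA box TATAAA once, 31 bases before it. TGACGTCA occurred in 588 of 32851 RefSeq promoters of that window (1.79%), TATAAA in 13.6% and the AP-1 site TGANTCA, of which Areg had no match, in 7.81%. Neither DNA binding nor chromatin was measured, and these matches are descriptions of the letters alone.

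**Figure D1:**
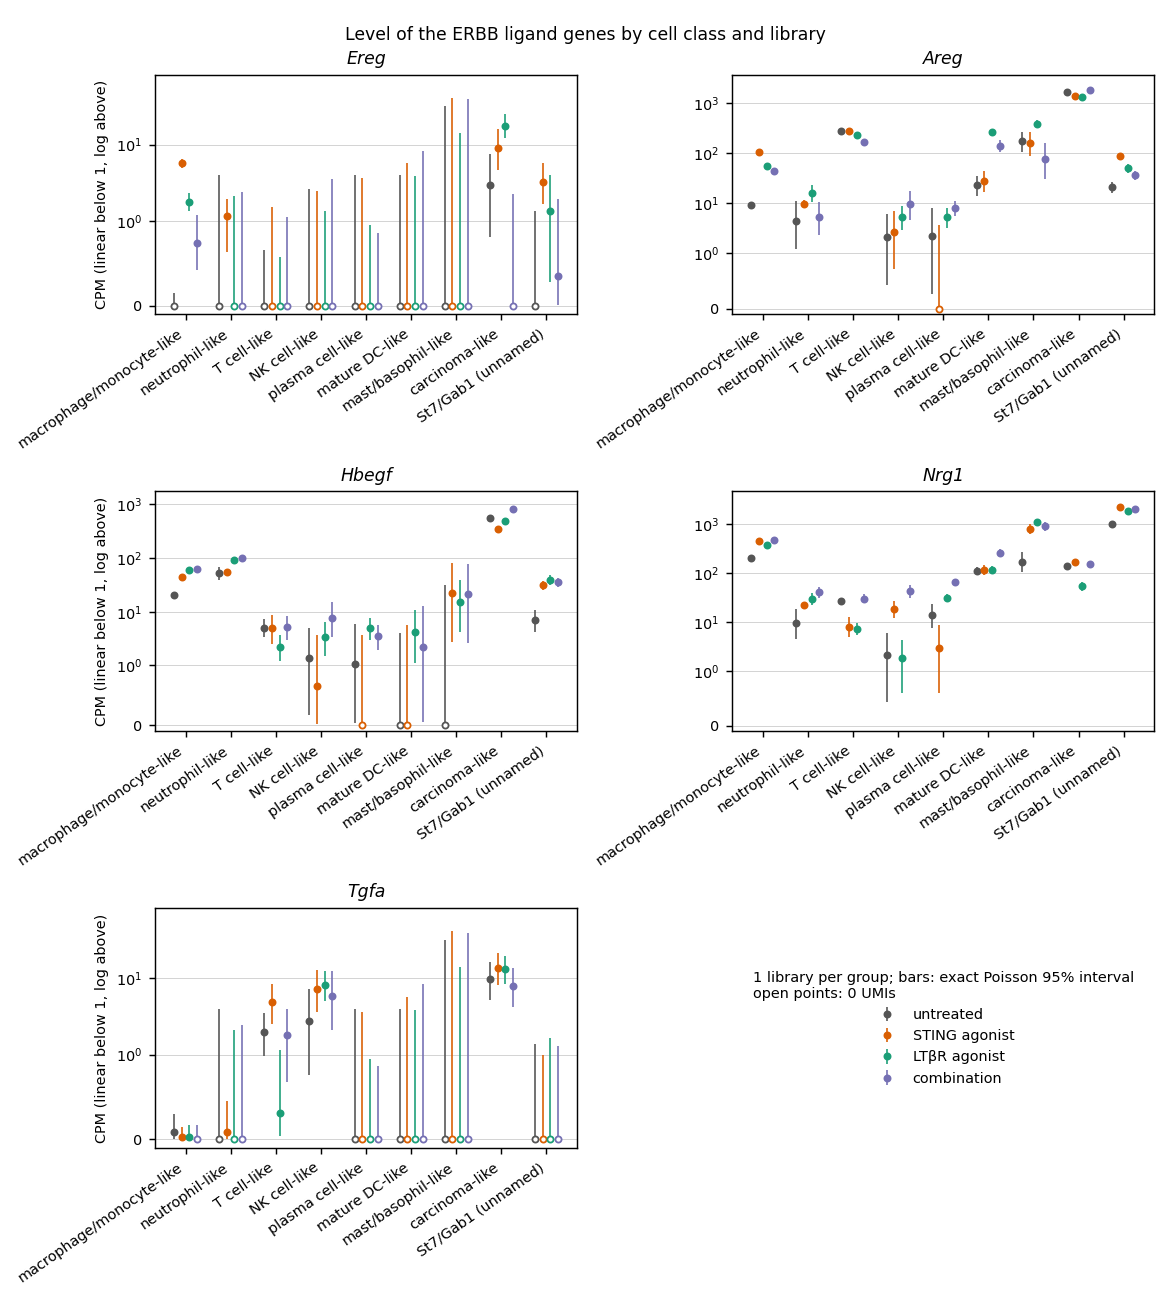
Level of each ERBB ligand gene (vertical axis, CPM, linear below 1 and logarithmic above) in 8 cell classes and the unnamed St7/Gab1 cluster, with 1 point per library and exact Poisson 95% intervals as bars. Of the populations drawn, Areg and Hbegf stood highest in carcinoma-like cells in every library (1305 to 1786 and 344 to 828 CPM), and Nrg1 in the St7/Gab1 cluster (995 to 2289 CPM).

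Areg was the ligand of several classes. In carcinoma-like cells its level was 1682 CPM (1613 to 1753) in the untreated library, 1374 (1312 to 1439) with the STING agonist, 1305 (1253 to 1358) with the LTβR agonist and 1786 (1722 to 1852) with the combination, and 50 to 63.2% of these cells had an Areg UMI. The 10 top cells held 1184 of the 2265 untreated UMIs there, and without the 10 top cells of each library the log2 ratio with the LTβR agonist turned from -0.37 (-0.45 to -0.28) to 0.07 (-0.04 to 0.18). Those 10 cells are a larger share of the untreated carcinoma-like cells than of the treated ones. T cell-like cells came next among the large classes, at 275, 277, 226 and 169 CPM. Macrophage-like cells stood at 9.13 CPM (7.96 to 10.4) in the untreated library and at 104 (100.4 to 107), 54.4 (51.9 to 57.0) and 43.3 (40.6 to 46.1) CPM in the STING agonist, LTβR agonist and combination libraries. Carcinoma-like and T cell-like cells thus had Areg in every library, while macrophage-like cells stood higher in each treated library than in the untreated one. Neutrophil-like cells held few Areg UMIs, at 4.33, 9.66, 16.1 and 5.24 CPM.

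Macrophage-like cells held 220 Areg UMIs in 56 cells of the untreated library, 3830 in 304 cells with the STING agonist, 1781 in 256 cells with the LTβR agonist and 943 in 214 cells with the combination. The log2 ratio over untreated was 3.50 (3.31 to 3.71) with the STING agonist, 2.57 (2.37 to 2.78) with the LTβR agonist and 2.24 (2.03 to 2.46) with the combination. The combination stood below the STING agonist by a log2 ratio of -1.26 (-1.37 to -1.16) and below the LTβR agonist by -0.33 (-0.45 to -0.22). After each cell was thinned to 2000 UMIs, 1.05% of untreated, 4.55% of STING agonist, 3.04% of LTβR agonist and 2.83% of combination macrophage-like cells had an Areg UMI (without thinning 1.81, 6.80, 4.24 and 3.42%). B cell-, plasma cell-, NK cell- and type 1 dendritic cell-like cells, taken as the level that free RNA gives, ranged from 0 to 9.65 CPM and from 0 to 1.79% of thinned cells in 14 combinations of class and library with at least 50 cells. The 3 treated macrophage-like levels lay above that range, which pools the libraries. Its top of 9.65 CPM came from NK cell-like cells of the combination library. In the untreated library NK cell-like cells stood at 2.09 CPM and type 1 dendritic cell-like cells at 2.24 CPM. Plasma cell-like cells stood at no more than 7.95 CPM in any library. The untreated macrophage-like level of 9.13 CPM was thus within the pooled range but above these 3 classes.

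Carcinoma markers were followed in macrophage-like cells beside Areg. Keratin UMIs (Krt8, Krt18 and Krt19) in macrophage-like cells were at 4.90 CPM in the untreated library and at 2.46, 1.96 and 2.20 CPM in the treated ones. Carcinoma-like cells had 183 to 228 Areg UMIs per 100 keratin UMIs, and macrophage-like cells 186 in the untreated library against 4209, 2783 and 1965 in the treated ones. The summed level of all 9 carcinoma markers in macrophage-like cells was 33.1 CPM in the untreated library and 41.5 to 47.1 CPM in the treated ones, and without Cdh1, 6.06 and 3.66 to 4.41 CPM. In macrophage-like cells with no keratin UMI, Areg stood at 8.35, 102, 54.8 and 43.0 CPM, nearly as in the whole class.

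Among T cell-like cells, 1 cluster held much of the Areg. It was led by Foxp3, the lineage factor of regulatory T cells, and Nckap5, and 47.7 to 75.4% of its cells had a Foxp3 UMI. This cluster made up 17.6% of T cell-like cells in the untreated library, 11.5% with the STING agonist, 9.41% with the LTβR agonist and 6.47% with the combination, and held 75.7, 72.3, 49.8 and 39.3% of the T cell-like Areg UMIs. Its level was 1413 CPM (1333 to 1497), 1866 (1705 to 2038), 1360 (1262 to 1464) and 1117 (973 to 1276), and Areg was found in 50.4, 52.2, 48.1 and 36.5% of its cells. The other T cell-like cells stood at 78.2, 86.0, 124 and 109 CPM. Over all T cell-like cells the log2 ratio over untreated was 0.01 (-0.12 to 0.14) with the STING agonist, -0.28 (-0.39 to -0.18) with the LTβR agonist and -0.70 (-0.85 to -0.56) with the combination, beside the falling share of the Foxp3-led cluster. Without the 10 top cells of each library the ratios were -0.65, -0.26 and -0.97. Those 10 cells held 34.2, 59.2, 33.3 and 45.3% of the T cell-like Areg UMIs. They are a larger share of the 599 T cell-like cells with the STING agonist than of the 1396 untreated ones, so leaving them out does not trim the libraries alike. The part of the Foxp3-led cluster's share in the ratios was not tested.

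Small classes also held Areg. Mast cell- and basophil-like cells, of which each library had 28 to 68, stood at 172, 157, 381 and 75.3 CPM. Mature dendritic cell-like cells stood at 22.6, 28.0, 262 and 139 CPM, and 1 cell of the LTβR agonist library held 111 of its 253 Areg UMIs.

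**Figure D2:**
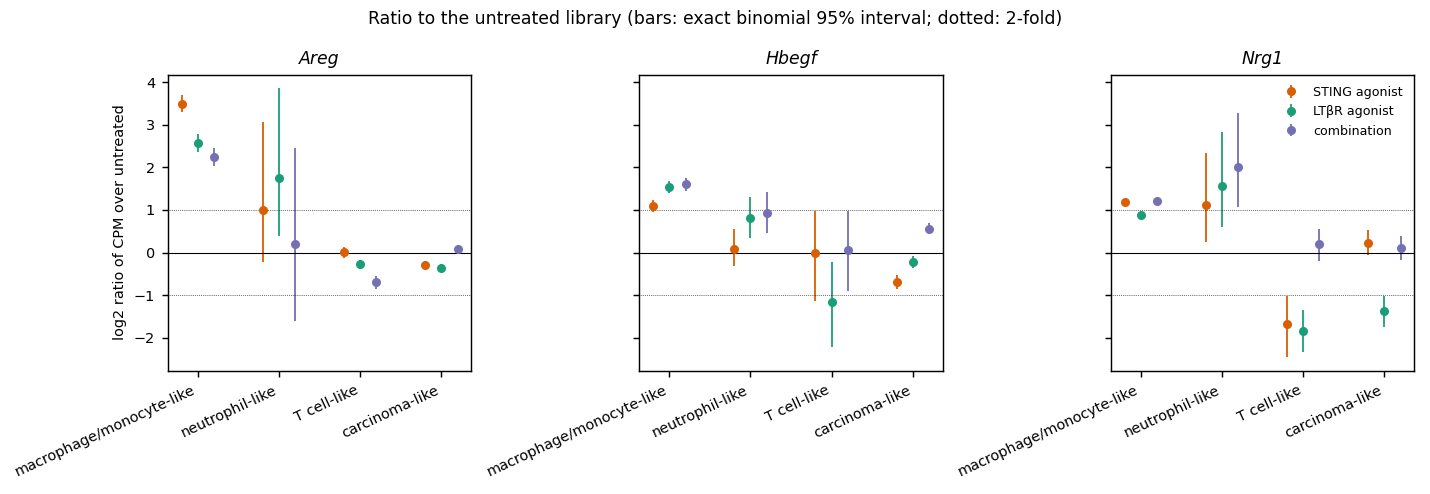
The log2 ratio of CPM in each treated library over the untreated library (vertical axis) for Areg, Hbegf and Nrg1 in 4 cell classes, with exact binomial 95% intervals as bars and dotted lines at a change of 2-fold. For Areg the macrophage-like ratios lay between 2.24 and 3.50, while the carcinoma-like and T cell-like ratios lay between -0.70 and 0.09.

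Hbegf was highest in carcinoma-like cells, then in neutrophil-like and macrophage-like cells. Carcinoma-like cells stood at 560 CPM (521 to 601) in the untreated library, 344 (313 to 377) with the STING agonist, 480 (449 to 513) with the LTβR agonist and 828 (784 to 873) with the combination. Neutrophil-like cells stood at 51.9, 55.6, 90.9 and 98.8 CPM and macrophage-like cells at 20.6, 43.9, 59.9 and 62.3 CPM. Without the 10 top cells of each library, the carcinoma-like log2 ratio with the LTβR agonist turned from -0.22 (-0.36 to -0.08) to 0.08 (-0.11 to 0.27). Here too the 10 cells are a larger share of the untreated carcinoma-like cells than of the treated ones. The STING agonist library was the lowest in carcinoma-like cells and the untreated library the lowest in macrophage-like cells. T cell-like cells stood at only 2.20 to 5.19 CPM, within the 0 to 18.1 CPM of the classes taken as the free-RNA level over all libraries.

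In macrophage-like cells the log2 ratio of Hbegf over untreated was 1.09 (0.95 to 1.24) with the STING agonist, 1.54 (1.40 to 1.69) with the LTβR agonist and 1.60 (1.45 to 1.75) with the combination. The combination stood above the STING agonist by 0.50 (0.40 to 0.61), and its ratio to the LTβR agonist, 0.06 (-0.04 to 0.16), had an interval that spanned 0. In neutrophil-like cells the ratio was 0.09 (-0.32 to 0.55) with the STING agonist, 0.80 (0.33 to 1.31) with the LTβR agonist and 0.92 (0.45 to 1.43) with the combination. Here the STING agonist, with 5292 cells the library richest in neutrophil-like cells, stood close to the untreated level, which rests on 48 Hbegf UMIs in 21 cells. Without the 10 top cells of each library only 11 of those UMIs were left, and the ratio was 1.96 (1.17 to 3.03) with the STING agonist, had an interval of 1.14 to 3.11 with the LTβR agonist and was 2.44 (1.60 to 3.54) with the combination. Those 10 cells are a larger share of the untreated cells than of the treated ones. Neutrophil-like clusters with high Ccl3, a chemokine gene, held 66.7, 51.1, 37.3 and 43.0% of neutrophil-like Hbegf UMIs beside 47.9, 50.1, 30.2 and 28.8% of all UMIs of the class, at 72.2, 56.7, 112 and 148 CPM. The neutrophil-like clusters left unnamed stood at 55.0, 71.2, 110.7 and 108 CPM, above the Ccl3-high ones with the STING agonist, and held 27.1 to 51.9%.

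Nrg1 was high in monocytes and macrophages. The macrophage-like class stood at 204 CPM (198 to 210), 461 (454 to 468), 377 (371 to 384) and 472 (463 to 481) in the untreated, STING agonist, LTβR agonist and combination libraries, and 31.5, 42.4, 35.2 and 34.3% of its cells had an Nrg1 UMI. At a fixed depth of 2000 UMIs those shares were 17.5, 28.8, 26.1 and 30.3%, against 0 to 4.85% in the classes taken as the free-RNA level. The log2 ratios over untreated were 1.18 (1.13 to 1.22), 0.89 (0.84 to 0.93) and 1.21 (1.16 to 1.26), so each treated library stood above the untreated one. The ratio of the combination to the STING agonist was 0.03 (0.00 to 0.07) and to the LTβR agonist 0.32 (0.29 to 0.36).

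The unnamed St7/Gab1 cluster held 20.6 to 30% of all Nrg1 UMIs of a library, at 995 CPM (958 to 1033) in the untreated library, 2289 (2240 to 2338) with the STING agonist, 1873 (1816 to 1931) with the LTβR agonist and 2065 (2013 to 2119) with the combination. It stood in the same order across libraries as the macrophage-like cells but for the combination and the STING agonist. Macrophage-like cells with under 2% ribosomal protein UMIs stood at 721, 773, 347 and 777 CPM of Nrg1, higher than the whole class in 3 libraries and lower in the LTβR agonist library. The part of low ribosomal content in the Nrg1 level was not tested.

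Among the other classes, mast cell- and basophil-like cells stood at 172, 795, 1128 and 904 CPM of Nrg1, above the macrophage-like class in each treated library, and 14.3 to 69.1% of them had an Nrg1 UMI. They numbered 28 to 68 per library. Mature dendritic cell-like cells stood at 113 to 254 CPM. Carcinoma-like cells stood at 141, 166, 53.9 and 151 CPM, lowest with the LTβR agonist at a log2 ratio over untreated of -1.38 (-1.75 to -1.03). That ratio rests on few cells, since the 10 top cells held 171 of the 190 untreated UMIs, and without the 10 top cells of each library it was 0.52 (-0.29 to 1.41) on 39 against 19 UMIs. The 10 cells are a larger share of the untreated carcinoma-like cells than of those with the LTβR agonist. In T cell-like cells the untreated level of 26.5 CPM rested on 3 cells, which held 108 of 148 UMIs, and without the 10 top cells of each library 9 were left.

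Ereg was a gene of very few cells. No leukocyte of the untreated library had an Ereg UMI, and its 4 UMIs there lay in 2 carcinoma-like cells. Macrophage-like cells held 0 UMIs in the untreated library, 209 in 30 cells with the STING agonist, 58 in 6 cells with the LTβR agonist and 16 in 9 cells with the combination, which is 0, 5.66, 1.77 and 0.734 CPM. A count of 0 in the untreated macrophage-like cells allows up to 3 UMIs over the class, or 0.124 CPM, so against that limit the treated levels were at least 45.5-fold, 14.2-fold and 5.90-fold higher, before counting error in the treated counts. With that error included, the exact lower limits of the log2 ratios were 5.20, 3.49 and 2.09. The combination stood below the STING agonist by a log2 ratio of -2.91 (-3.78 to -2.21). Without the 10 cells that held most Ereg, 32 UMIs (0.869 CPM) were left with the STING agonist and 0 with the LTβR agonist and with the combination. The Ereg level of a library was thus the level of a handful of cells. Outside the macrophage-like class, carcinoma-like cells held 4, 12, 32 and 0 Ereg UMIs, of which 29 of the 32 with the LTβR agonist lay in 1 cell. That cell had no UMI of Krt8, Krt18 or Krt19 among 16679 UMIs. Nor did the untreated carcinoma-like cell with 3 Ereg UMIs, among 25663. Neutrophil-like cells of the STING agonist library held 14 Ereg UMIs in 5 cells.

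Cells with Ereg often held Areg. Of the 30 macrophage-like cells with Ereg in the STING agonist library, 15 (50%, exact interval 31.3 to 68.7%) also had an Areg UMI, against 6.51% of the other macrophage-like cells. With the LTβR agonist 6 of 6 had an Areg UMI, against 4.14% of the others, and with the combination 5 of 9, against 3.35%. Cells with Ereg were also deeper, with median depths of 10413 against 7975 UMIs, 10730 against 4885 and 3205 against 2895, and the part of depth in these shares was not tested. The cell with most Ereg, in the STING agonist library, held 74 Ereg UMIs and 146 Areg UMIs among 23708 UMIs, with 100 UMIs of Lyz2 and none of Krt8, Krt18 or Krt19.

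Tgfa was near the limit of detection. It had 32, 43, 49 and 25 UMIs in the untreated, STING agonist, LTβR agonist and combination libraries. Carcinoma-like cells held 13, 18, 24 and 13 of these, at 9.65, 13.6, 13.2 and 7.92 CPM, and NK cell-like cells 4, 11, 22 and 6. Macrophage-like cells held 2, 1, 1 and 0 UMIs, where a count of 0 allows up to 3 UMIs. In carcinoma-like cells no difference from untreated was detectable at this depth, with log2 ratios of 0.48 (-0.62 to 1.64), 0.43 (-0.58 to 1.55) and -0.29 (-1.51 to 0.94). T cell-like cells held 11, 12, 2 and 6 Tgfa UMIs, and the LTβR agonist library, on its 2 UMIs, stood below untreated at -2.39 (-5.87 to -0.46).

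**Figure D3:**
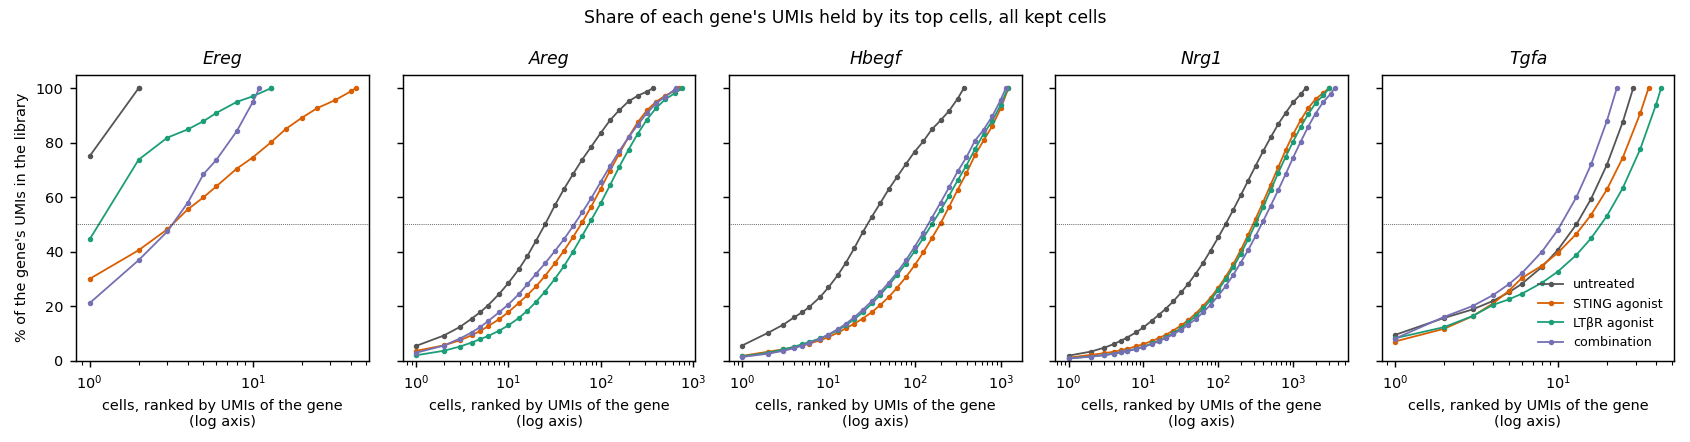
Share of all UMIs of a gene in a library (vertical axis, percent) held by its top cells, ranked by their UMIs of that gene (horizontal axis, number of cells, logarithmic), over all kept cells and with 1 line per library. The 10 top cells held at least 74.5% of Ereg UMIs and between 4.97 and 12.2% of Nrg1 UMIs.

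The ligands differed in how few cells held them. The 10 cells with most Ereg held 100% of its UMIs in the untreated library, 74.5% with the STING agonist, 97.0% with the LTβR agonist and 94.7% with the combination. For Areg the top 10 cells held 28.4, 17.8, 12.9 and 20.5%, for Hbegf 26.8, 8.59, 9.40 and 9.50%, and for Nrg1 12.2, 6.03, 5.13 and 4.97%. The smallest number of cells that held 50% of the UMIs was 1, 4, 2 and 4 cells for Ereg, 26, 62, 75 and 52 for Areg, 29, 198, 159 and 144 for Hbegf, and 126, 292, 313 and 379 for Nrg1. In the untreated library fewer cells were kept, and the numbers of cells are not corrected for that.

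The class of the top cells also differed between libraries. Of the 10 cells with most Areg, 9 were carcinoma-like in the untreated library, 4 with the STING agonist, 4 with the LTβR agonist and 10 with the combination, and 5 were macrophage-like with the STING agonist and 3 with the LTβR agonist. The top Areg cell held 225, 254, 130 and 147 UMIs and was carcinoma-like in every library. Of the 10 cells with most Nrg1, 8, 6, 4 and 5 were of the unnamed clusters and all others macrophage-like. Within macrophage-like cells, the top 10 held 56.4% of Areg UMIs in the untreated library and 24.5, 28.1 and 28.2% in the treated ones. Without those 10 cells in each library, macrophage-like Areg was at 4.00, 78.6, 39.3 and 31.1 CPM.

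**Figure D4:**
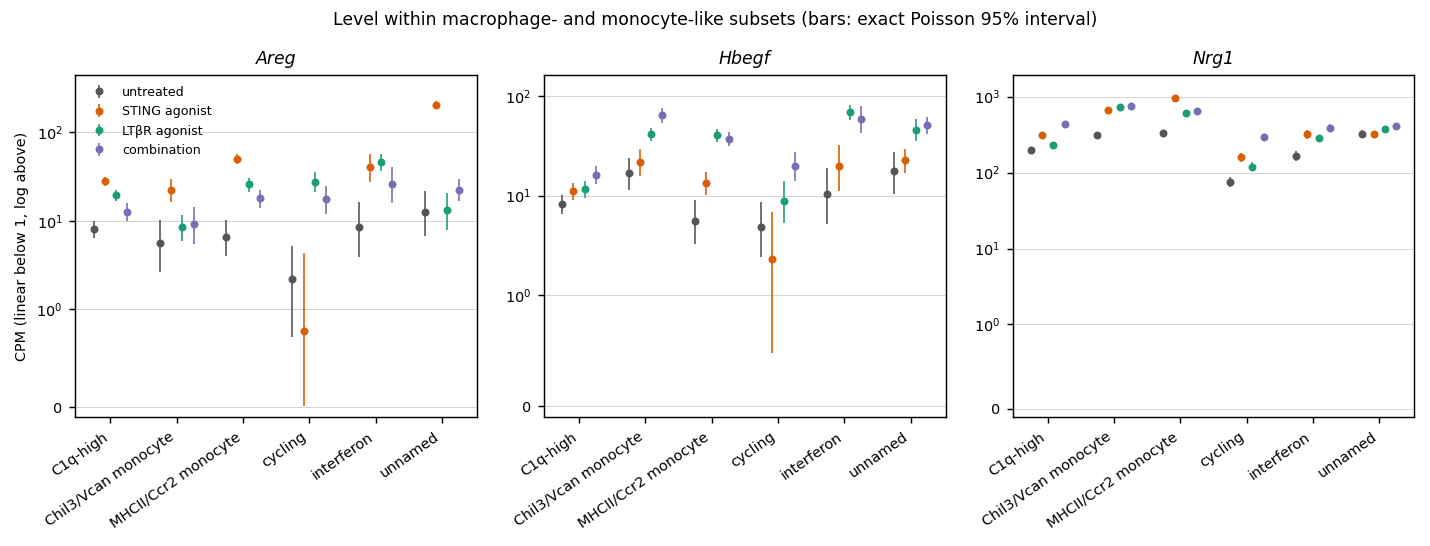
Level of Areg, Hbegf and Nrg1 (vertical axis, CPM, linear below 1 and logarithmic above) in 6 subsets of macrophage- and monocyte-like cells (clusters of the same name pooled), with 1 point per library and exact Poisson 95% intervals as bars. Areg stood at 207 CPM in the pooled unnamed clusters with the STING agonist, and in each treated library Nrg1 was higher in the Chil3/Vcan and MHCII/Ccr2 monocyte-like subsets than in the other subsets plotted.

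Macrophage-like cells fell into clusters named from their markers, and clusters of the same name were pooled into subsets. In the C1q-high subset, named from complement C1q genes, Areg stood at 8.06, 27.9, 19.5 and 12.7 CPM in the untreated, STING agonist, LTβR agonist and combination libraries. In the MHCII/Ccr2 monocyte-like subset, with MHC class II genes and the monocyte chemokine receptor Ccr2, it stood at 6.58, 49.7, 25.9 and 18.0 CPM, and the untreated value rests on 20 UMIs in 1 cell. The untreated values of both subsets lie within the 0 to 9.65 CPM taken as the free-RNA level over all libraries. They lie above the NK cell-like (2.09 CPM) and type 1 dendritic cell-like (2.24 CPM) levels of the untreated library. Inside the C1q-high subset the log2 ratio of Areg over untreated was 1.79 (1.43 to 2.16) with the STING agonist, 1.27 (0.89 to 1.66) with the LTβR agonist and 0.66 (0.18 to 1.12) with the combination. In the macrophage-like clusters left unnamed, pooled over all of them, Areg of the STING agonist library stood at 207 CPM with 494 UMIs in 24 cells, of which 1 cell held 136. These clusters differ from each other, and include one led by the neutrophil genes S100a9 and S100a8 and one led by the lymphocyte genes Skap1 and Il2rb.

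Hbegf in the MHCII/Ccr2 subset stood at 5.59, 13.3, 40.2 and 37.2 CPM, with log2 ratios over untreated of 1.22 (0.46 to 2.12), 2.81 (2.13 to 3.66) and 2.70 (2.01 to 3.55). In the Chil3/Vcan monocyte-like subset, named from Chil3 and Vcan among other monocyte genes, it stood at 16.7, 21.7, 41.1 and 64.2 CPM, and in the C1q-high subset at 8.16 to 16.1 CPM. The untreated values of all 3 subsets, the STING agonist value of the MHCII/Ccr2 subset and every C1q-high value lie within the 0 to 18.1 CPM taken as the free-RNA level over all libraries. Its top came from B cell-like cells, which numbered at least 50 only with the LTβR agonist and the combination. NK cell-like and type 1 dendritic cell-like cells stood at 1.40 and 3.73 CPM in the untreated library and at 0.661 and 1.60 CPM with the STING agonist. Plasma cell-like cells stood at no more than 4.90 CPM in any library. The untreated values of the 3 subsets and the STING agonist value of the MHCII/Ccr2 subset lie above these levels. In both monocyte-like subsets the LTβR agonist and combination libraries thus stood above the untreated and STING agonist ones.

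Nrg1 stood at 315, 664, 736 and 761 CPM in the Chil3/Vcan monocyte-like subset, at 329, 951, 615 and 647 CPM in the MHCII/Ccr2 subset and at 199, 308, 231 and 437 CPM in the C1q-high subset. In each of these 3 subsets every treated library stood above the untreated one. In these subsets the log2 ratios over untreated ran from 0.22 (0.13 to 0.31) in C1q-high cells with the LTβR agonist to 1.53 (1.43 to 1.63) in the MHCII/Ccr2 subset with the STING agonist.

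Weighted to the subset make-up of the untreated library, the macrophage-like log2 ratios over untreated were 2.70, 2.15 and 1.92 for Areg, 0.22, 1.02 and 1.25 for Hbegf, and 1.06, 0.69 and 1.16 for Nrg1, in the order STING agonist, LTβR agonist and combination. The Hbegf ratio with the STING agonist fell below 2-fold under that weighting, and the Areg ratios stayed above it. Naming cells from their own markers without clusters gave lower Areg ratios of 1.47, 0.93 and 0.97, and under that naming 33 cells of the carcinoma-like clusters held 67.3% of the untreated class's Areg UMIs.

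Single macrophage-like cells could hold more than 1 ligand. Among cells thinned to 2000 UMIs, Hbegf was found in 17.2% of untreated cells with an Areg UMI (5 of 29) against 2.30% of those without, in 9.34 against 5.84% with the STING agonist, in 22.2 against 7.04% with the LTβR agonist and in 20.3 against 7.40% with the combination. The exact intervals did not overlap in the untreated, LTβR agonist and combination libraries, where they ran from 5.85 to 35.8% against 1.77 to 2.94%, 15.9 to 29.6% against 6.34 to 7.79%, and 13.5 to 28.7% against 6.61 to 8.25%. With the STING agonist they did. The untreated macrophage-like Areg lay within the free-RNA range pooled over libraries, though above the NK cell- and type 1 dendritic cell-like levels of its own library. It had as many UMIs per keratin UMI as in carcinoma-like cells, which hold both ligands, and the part of free RNA in these shares was not tested. Nrg1 was found in 20.7, 35.2, 28.8 and 34.7% of cells with an Areg UMI against 17.5, 28.5, 26.0 and 30.2% of those without, with overlapping intervals in every library.

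Set beside all genes, the members were counted past 2-fold where they had at least 200 UMIs over both libraries. In macrophage-like cells with the STING agonist over untreated, 4 of the 4 members that entered (Ereg, Areg, Hbegf and Nrg1) were past 2-fold, all upward, where 4.43% of 10106 genes were past 2-fold in either direction and 2.29% upward. With the LTβR agonist it was 2 of 3 (Areg and Hbegf), also upward, beside 1.46% of all genes (1.15% upward), and with the combination 3 of 3 (Areg, Hbegf and Nrg1), upward, beside 1.36% (0.979% upward). With cells named by their own markers without clusters these counts were 2 of 3, 1 of 3 and 2 of 3, since Ereg no longer entered, Hbegf with the STING agonist was at 0.77 and Areg with the LTβR agonist and the combination at 0.93 and 0.97, and at the untreated subset mix Hbegf with the STING agonist was at 0.22. Between the combination and the STING agonist 2 of 4 (Ereg and Areg) were past 2-fold downward, beside 2.5% of all genes in either direction and 0.811% downward, and between the combination and the LTβR agonist 0 of 3, beside 0.379%. Since the members were chosen with these values known, nothing is read from their excess over all genes. Tgfa never entered, and Ereg entered only in comparisons that included the STING agonist library, through the group where it was high.

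Over all kept leukocytes, where cell shares also count, Areg stood at 44.8, 80.9, 71.5 and 50.2 CPM, Hbegf at 16.0, 39.6, 41.9 and 44.5 CPM and Nrg1 at 202, 432, 326 and 462 CPM. With the STING agonist over untreated 3 of 4 members were past 2-fold (Ereg, Hbegf and Nrg1), all upward, beside 12.8% of all genes in either direction and 4.54% upward. With the LTβR agonist it was 1 of 3 (Hbegf), upward, beside 2.49% (1.72% upward), and with the combination 2 of 3 (Hbegf and Nrg1), upward, beside 3.57% (2.13% upward). Between the combination and the STING agonist 1 of 4 (Ereg) was, downward, beside 7.54% in either direction and 3.22% downward, and between the combination and the LTβR agonist 0 of 3, beside 1.58%. Areg stood past 2-fold in none of these comparisons over leukocytes, with log2 ratios over untreated of 0.85 (0.78 to 0.93), 0.68 (0.60 to 0.75) and 0.16 (0.08 to 0.25). T cell-like cells held 36.3, 9.45, 21.3 and 10.7% of the Areg UMIs of all kept cells, and macrophage-like cells 5.22, 53.1, 26.3 and 18.2%.

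Of the 4 receptor genes, Egfr and, at a low level, Erbb2 were seen in carcinoma-like cells. Egfr stood at 167, 180, 189 and 179 CPM there and at 0.918 to 2.02 CPM in macrophage-like cells, and Erbb2, the shared partner of the other receptors, at 11.1 to 20.1 CPM in carcinoma-like cells with at most 1 UMI in the macrophage-like cells of any library. Erbb3 had 0 to 4 UMIs and Erbb4 0 or 1 UMI in the carcinoma-like cells of a library. None of the 4 receptor genes had enough UMIs to be compared in macrophage-like cells. Over all leukocytes Egfr, the only one that entered, stood at 1.34 to 3.26 CPM, highest in the untreated library, with log2 ratios over untreated of -0.71 (-1.06 to -0.36), -0.60 (-0.95 to -0.25) and -1.27 (-1.74 to -0.83), the last past 2-fold downward on 60 against 142 UMIs, beside 1.44% of all genes.

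Of the other 6 ligand genes, Btc, which encodes betacellulin, was in carcinoma-like cells at 339, 154, 204 and 145 CPM and had at most 9 UMIs in the macrophage-like cells of a library. Nrg2 was in macrophage-like cells at 27.5, 16.3, 26.8 and 30.7 CPM, and Nrg4 at 0.622, 5.69, 1.71 and 1.79 CPM. Of the 2 that entered in macrophage-like cells with the STING agonist, Nrg4 was past 2-fold upward, at a log2 ratio of 3.15 (2.44 to 4.05) on 210 against 15 UMIs. Like Ereg, it entered only through the group where it was high, so its call is not read against all genes. Egf stood at 0.894 to 1.74 CPM in macrophage-like cells, and Epgn and Nrg3 had at most 3 UMIs in those of any library.

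Of 9 genes for shedding, the release of the ligands from the cell surface, 7 entered in macrophage-like cells. In the 5 comparisons 0 of 7 were past 2-fold, beside 0.379 to 4.43% of all genes, a background at which a count of 0 is no result about the list. Adam17, the main sheddase, stood at 167, 154, 161 and 139 CPM, and Rhbdf2, which brings it to the surface, at 67.5, 79.8, 90.2 and 74.4 CPM. Adam8 had the highest ratio of the list with the STING agonist, at 0.75 (0.71 to 0.80). Over all leukocytes, where cell shares also count, 1 of 8 was past 2-fold in each comparison with untreated, beside 12.8, 2.49 and 3.57% of all genes. Adam8 was past 2-fold upward with the STING agonist at 1.04 (1.01 to 1.07), and Timp3, which encodes a metalloprotease inhibitor, downward with the LTβR agonist at -1.33 (-1.75 to -0.93) and with the combination at -1.06.

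Of 14 feedback regulators and early target genes of ERBB and ERK signaling, which many other receptors also induce, 9 entered in macrophage-like cells with the STING agonist. There 6 of 9 were past 2-fold upward (median log2 ratio 1.23, against -0.21 over all genes), beside 2.29% of all genes upward. They were Errfi1, which inhibits EGFR, the ERK phosphatase genes Dusp4 and Dusp5, the AP-1 subunit Fosl1, Phlda1 and Ier3. Dusp4 entered only in comparisons that included the STING agonist library, through the group where it was high, at a log2 ratio of 1.00 (0.56 to 1.48) on 167 against 54 UMIs. Errfi1 stood at 372 against 127 CPM, Dusp5 at 291 against 80.8 CPM and Fosl1 at 11.1 against 2.12 CPM. Dusp6 and Etv5, also targets of ERK signaling, had negative ratios of -0.60 (-0.68 to -0.52) and -0.61 (-0.71 to -0.50). With the LTβR agonist 1 of 8 (Fosl1) was past 2-fold upward and with the combination 2 of 8 (Dusp5 and Fosl1), with medians of 0.61 and 0.51 against -0.04 and -0.08 over all genes and 1.15 and 0.979% of all genes past 2-fold upward.

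Of 9 other growth factor genes of myeloid cells 7 entered, and 1 was past 2-fold in any macrophage-like comparison with untreated, where 4.43, 1.46 and 1.36% of all genes were. That was Igf1, which encodes insulin-like growth factor 1, at 43.5 CPM with the LTβR agonist against 19.4 CPM, a log2 ratio of 1.16 (1.01 to 1.32). Osm, which encodes oncostatin M, stood at 569, 969, 971 and 932 CPM and Vegfa at 375, 620, 459 and 450 CPM. All these lists were chosen with earlier results of the data known, and their counts are descriptions too.

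The genes most like each member across cell clusters and libraries were taken from the Pearson correlation of log2(CPM + 1) over 91 profiles of 25 clusters, each with at least 50 cells in a library. Profiles of a library share its depth and those of a cluster its cells, so the values only describe. For Areg they were Fam20a (0.81), Nrbp2 (0.76), Efnb2, Ank and Ttc39c (each 0.69). For Hbegf they were Slc25a37 and Egr1 (each 0.76), and Inhba, Phlda1 and Soat1 (each 0.75), and for Nrg1 Gab1 (0.85), and Epb41l2, Dock1, Adam9 and Zfyve9 (each 0.84). Ereg had no gene above 0.57 (Flrt2), followed by Ackr3, Gja1, Spaca6 and Sema3c. For Tgfa they were Rab27b, Arhgef5, Klra6 and Fhl2 (each 0.87) and Dmrta1 (0.86). Among the members themselves the highest value was 0.47, between Ereg and Areg.

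Macrophage-like cells with at least 3 UMIs of a member were compared within each library with those that had none. The cells were not split by subset, and the part of subset make-up in the ratios below was not tested. Cells with Areg, of which there were 22, 182, 130 and 90, had more Il6 and Csf3, which encode the cytokines interleukin 6 and G-CSF, and more Cxcl3, which encodes a neutrophil chemoattractant, at mean log2 ratios over the 4 libraries of 2.29 (1.56 to 3.19 in single libraries), 2.03 (0.43 to 4.28) and 2.18 (1.22 to 2.96). Schip1 (2.03) and Cdk5r1 (1.92) completed the 5 highest. Cells with Hbegf, 40, 177, 197 and 140 in number, had more Ccl24 (3.73), Cxcl3 (3.42), Gipr (3.28), Serpinb2 (3.26) and Mmp9 (3.12), of which Ccl24 encodes an eosinophil chemoattractant and Mmp9 a gelatinase. Cxcl3 thus stood among the 5 highest beside both. Cells with Nrg1 differed less from the rest, with Samd11 (1.43), Ksr2 (1.36), Apol7c (1.35), Slc44a5 (1.22) and H2-M2 (1.20) highest. In single libraries Apol7c ran from -0.01 to 2.97 and H2-M2 from 0.31 to 1.64, so Apol7c was not higher in every library. Ereg and Tgfa had fewer than 20 such cells in every library and were not compared.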

How the data were processed

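The authors deposited 1 matrix of raw UMI counts per library (10x Genomics 5′ single-cell RNA sequencing of pooled, CD45+ sorted tumor cells), made with Cell Ranger on mm10. The file headers name Cell Ranger 8.0.1 and the submitters' processing notes 7.1.0. The members and gene lists were chosen with earlier results of these data known, and the thresholds for naming clusters were set after the data had been seen.

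Cells with 300 to 5000 genes and at most 6% mitochondrial UMIs were kept. The top doublet scores (0.4% per 1000 cells) were removed, because the automatic threshold of Scrublet (in scanpy 1.11.5) marked 0 or 1 cell per library. Clusters were made with Leiden at resolution 1 and named from at least 3 markers at 2-fold or more. For the subsets of macrophage-like and neutrophil-like cells the markers had to reach 1.5-fold. UMIs were summed per class and library, and 0.5 UMI was added to each sum for log2 ratios. The code for the ratios was tested on simulated counts with known folds, which is no test of the ratios themselves. Genome positions and the Areg promoter came from RefSeq (GRCm38.p6, the build of mm10). Genes named by likeness were the 5 with the highest correlation, and those of cells with at least 3 UMIs the 5 with the highest mean fold, leaving out other members and antigen receptor, mitochondrial, ribosomal, sex-linked and predicted genes. The limit of 20 such cells per library was set after the data had been seen. The 95% intervals, and the limit of 3 UMIs that a count of 0 allows, cover counting error only. Values of 1 macrophage-like subset are not reported here.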

Additional observations from a re-analysis of the deposited data

Results flagged for a closer look

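Some genes stood on opposite sides of the untreated level in different cell classes, with 95% counting intervals that did not include 0. The difference between classes was not tested, since each group had 1 library. For Areg with the STING agonist the log2 ratio over untreated was 3.50 in macrophage-like and -0.29 in carcinoma-like cells. With the LTβR agonist it was 2.57 in macrophage-like, -0.28 in T cell-like and -0.37 in carcinoma-like cells. With the combination it was 2.24 in macrophage-like, 0.09 in carcinoma-like and -0.70 in T cell-like cells. For Hbegf with the STING agonist it was 1.09 in macrophage-like and -0.70 in carcinoma-like cells, and with the LTβR agonist 1.54 in macrophage-like, 0.80 in neutrophil-like and -0.22 in carcinoma-like cells. For Nrg1 with the LTβR agonist it was 0.89 in macrophage-like and -1.38 in carcinoma-like cells, on 98 against 190 UMIs in the latter. The neutrophil-like ratio of Hbegf with the LTβR agonist rests on 48 untreated UMIs, of which 11 were left without the 10 top cells, and then had an interval of 1.14 to 3.11. The carcinoma-like values with the LTβR agonist rest on few cells. Without the 10 top cells of each library they were 0.07 (-0.04 to 0.18) for Areg, 0.08 (-0.11 to 0.27) for Hbegf and 0.52 (-0.29 to 1.41) for Nrg1, no longer below untreated. With the STING agonist they were -0.22 (-0.35 to -0.09) for Areg and -0.38 (-0.60 to -0.16) for Hbegf. The 10 top cells are a larger share of the 152 untreated carcinoma-like cells than of the treated ones. They held 52.3% of the untreated Areg, 48.3% of the Hbegf and 90% of the Nrg1 UMIs there, against 32.1, 32.8 and 60.2% with the LTβR agonist. Leaving them out thus does not trim the libraries alike.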

How the results depend on the processing

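No paired analysis was possible because each group had 1 library, and for the same reason no replicate could be left out. The limits are depth (2200 UMIs per cell in the combination library), the few cells that held Ereg, and cells named from markers. Below, macrophage-like ratios over untreated are log2 values in the order STING agonist, LTβR agonist, combination, and levels and shares start with the untreated library. Where a cause is not evident from the setting, the cause was not tested. A sign is counted as turned where the interval of the main ratio did not span 0. Of the 2 signs that turned in macrophage-like cells and leukocytes, Areg of the combination over the LTβR agonist was 0.04 with cells named by their own markers without clusters, and Areg of the combination over untreated across leukocytes was -0.17 after thinning to 2000 UMIs.

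Naming by markers without clusters gave 1.47, 0.93 and 0.97 for Areg, 0.77, 1.20 and 1.43 for Hbegf and 1.03, 0.70 and 1.13 for Nrg1, and members past 2-fold were 2 with the STING agonist, 1 with the LTβR agonist and 1 between the combination and the STING agonist. All deposited cells gave 2.68, 1.77 and 1.44 for Areg and 1.27 for Nrg1 with the combination. Keeping doublets gave 3.28 for Areg with the STING agonist and 1.26 for Nrg1 with the combination. Doubling the clustering resolution gave 1.35, 0.80 and 1.14 for Nrg1. Asking for 500 UMIs left 1 member past 2-fold between the combination and the STING agonist. Thinning gave 3.72 (STING agonist) and 2.72 (combination) for Areg and 1.04, 0.75 and 1.06 for Nrg1, 1 member past 2-fold between the combination and the STING agonist, and across leukocytes 1 with the STING agonist and 0 between the combination and the STING agonist. Thinned shares of cells with a UMI were 0.375% for Ereg with the STING agonist, 1.05, 4.82, 3.32 and 2.97% for Areg, 2.10, 5.82, 7.22 and 7.84% for Hbegf and 19.0, 28.8, 25.3 and 30.4% for Nrg1, each from a draw of its own.

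Without the 10 top cells per gene, ratios were 4.29, 3.29 and 2.95 for Areg, 1.66, 2.13 and 2.19 for Hbegf and 1.28, 0.98 and 1.29 for Nrg1, 1 member was past 2-fold between the combination and the STING agonist, and 0 across leukocytes. Levels were then 0.869 (STING agonist) and 0 CPM (LTβR agonist) for Ereg, 4.00, 78.6, 39.3 and 31.1 CPM for Areg, 12.0, 38.1, 52.7 and 54.9 CPM for Hbegf and 178, 432, 350.2 and 433 CPM for Nrg1.

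Chosen after seeing the data, leaving out the 10 top cells also turned 3 signs in carcinoma-like cells with the LTβR agonist, to 0.07 for Areg, 0.08 for Hbegf and 0.52 for Nrg1, and 2 in T cell-like cells, Nrg1 to 1.18 with the STING agonist and 0.07 with the LTβR agonist, on 9 untreated UMIs. The T cell-like Areg ratio with the STING agonist also changed sign, from a main ratio whose interval spanned 0, and was not counted. Also chosen then, the untreated subset mix gave 2.70, 2.15 and 1.92 for Areg, 0.22, 1.02 and 1.25 for Hbegf and 1.06 and 0.69 for Nrg1 (STING agonist, LTβR agonist), the St7/Gab1 cluster added to the class gave 0.73 for Nrg1 with the LTβR agonist, and leaving out cells under 2% ribosomal UMIs gave 1.24, 0.97 and 1.27 for Nrg1. Leaving out macrophage-like cells with a keratin UMI moved none of these values beyond their counting intervals.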
